A study of Arabidopsis thaliana with 16 samples.

Results

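Protein protected sites (PPSs) were compared by the RNase that revealed them in nuclei of control-treated Arabidopsis leaves. Members are the PPSs of both control lists whose listed calls come from 1 RNase alone, and they number 60,239 of the 122,224 PPSs in all 4 lists of the series. Of these, 32,536 were found with dsRNase and 27,703 with ssRNase. Another 1,460 PPSs of replicate 1 and 1,894 of replicate 2 were joined from calls of both RNases and were left out.

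The study profiled RNA-protein interactions and RNA secondary structure by protein interaction profile sequencing (PIP-seq) in control-treated and salt-treated plants, with 2 biological replicates of each. The control dsRNase group and the control ssRNase group share everything but the enzyme: 4-week-old rosette leaves, control treatment and the genotype UBQ10:NTF/ACT2p:BirA in the Columbia-0 ecotype. In both, UBQ10 drives the nuclear envelope tag and ACT2p the biotin ligase, promoters active in most cell types, so the nuclei are a mixture of leaf cells. Tissue was fixed with formaldehyde, tagged nuclei were collected on streptavidin beads (INTACT), and each replicate gave, for each RNase, a footprinting library digested with proteins in place and a structure-only library digested after proteinase K. All 6 leaf markers checked (RBCS1A, RCA, LHCB1.3, LHCB2.1, CAT2 and GLDP1) were among the transcripts with a structure score, and 0 of 5 root, flower and seed markers were.

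RNase V1, the dsRNase, cuts base-paired RNA, and RNase ONE, the ssRNase, cuts unpaired RNA. A site bound by protein resists digestion, so reads over it are enriched in the footprinting library, and each enzyme can only reveal protection of RNA that it would otherwise cut. In the nucleus, RNA-binding proteins meet transcripts that still hold introns, and splicing factors, the exon junction complex and export factors assemble on them near exon ends.

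The PPSs with the highest enrichment score of each RNase show what such a site looks like. Of each, the central 30 bases are given, with G and C in capitals, since base content is compared further on.
AT4G38550, dsRNase, replicate 1: tCtGatCaaCGtaGtaaCCatGGtaaaGaG
ARR4, dsRNase, replicate 2: GtGGtatCGtttGtCaGttaCGGCGGtaGa
chromosome 2, ssRNase, replicates 1 and 2: CttaCtCtGCaaCaaGtCCGtttCttaCtt
Coordinates are those of TAIR10, and the bases were read from the RefSeq assembly TAIR10.1 on the strand of the gene. The site of AT4G38550 (chr4:18027239-18027268, + strand) lies in the CDS and scored 54.1. Its PPS is listed on the opposite strand, among the minus-strand dsRNase PPSs of replicate 1, which go against their label as described below. The site of ARR4, a response regulator of cytokinin signalling (chr1:3443481-3443510, − strand), lies in an intron by its centre and scored 49.3. The ssRNase site (chr2:10543117-10543146, + strand of the PPS) scored 56.5 in both lists with identical bounds. It lies outside the genes with a structure score, inside the span of the lncRNA AT2G24755, which is annotated on the other strand.

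A second set shows what PPSs across a splice site look like, for the groups given here by the highest-scoring one of the group, chosen after its values were seen. At donors, the capitals mark the first 2 bases of the intron.
BON1, ssRNase, replicate 1: caatcgatttcacagGTatgtattgcacca
AT5G62570, ssRNase, replicate 2: ttaattcgtaaagtgGTacgtatctcgttg
At acceptors, they mark the last 2 bases of the intron.
ARR4, dsRNase, replicate 2: ggtatcgtttgtcAGttacggcggtagata
HB6, ssRNase, replicate 1: tttggtttgatgcAGattagtaaactgaaa
SHD, ssRNase, replicate 2: cttgttggcacgcAGatgtggagaagtctg
The ssRNase donor PPSs of BON1, a copine of membrane trafficking (chr5:24857167-24857196, − strand), and of AT5G62570 (chr5:25115036-25115065, + strand) scored 27.2 and 33.0. The ARR4 acceptor (chr1:3443479-3443508, − strand) lies under the same PPS as the ARR4 site given above. The acceptor PPSs of HB6, a homeodomain-leucine zipper transcription factor (chr2:9526941-9526970, − strand), and SHD, an HSP90 of the endoplasmic reticulum (chr4:12553114-12553143, − strand), scored 33.0 and 34.9.

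Before the results, 3 properties of the lists need stating. First, 6,653 dsRNase PPSs and 8,246 ssRNase PPSs are listed identically, in place and score, in each of the control lists, which is 32.0% and 56.6% of the dsRNase PPSs of replicates 1 and 2 and 62.1% and 57.1% of the ssRNase PPSs. All identical dsRNase PPSs are on the + strand, whereas the identical ssRNase PPSs divide into 4,525 on the + strand and 3,721 on the − strand. Control calls also recur in the lists of salt-treated leaves with the same RNase, place and score. Of the 10,722 plus-strand dsRNase PPSs of replicate 1, 6,809 are identical in salt replicate 1 and 6,715 in salt replicate 2, there on the opposite strand. The lists are therefore not independent, and the gap between replicates understates their error.

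Second, the listed strand often opposes that of the gene. Of the PPSs centred in 1 scored gene, 34.5% and 78.8% of the dsRNase PPSs of replicates 1 and 2 lay on the strand of the gene, against 50.3% and 67.4% of the ssRNase PPSs. Splitting each group by its listed strand put most of this in certain strand subsets: 0.723% of the minus-strand dsRNase PPSs of replicate 1 and 0.819% of the plus-strand ssRNase PPSs of replicate 1 were sense, against 99.3% for minus-strand dsRNase PPSs of replicate 2 and 99.4% and 99.2% for minus-strand ssRNase PPSs. The other plus-strand subsets changed by chromosome. Plus-strand ssRNase PPSs of replicate 2 were at most 0.917% sense on chromosomes 1 to 4, but 98.7% on chromosome 5. Plus-strand dsRNase PPSs ran from 21.3% (chromosome 4) to 94.4% (chromosome 2) in replicate 1, and from 5.19% (chromosome 5) to 93.2% (chromosome 2) in replicate 2. Regions were therefore assigned by transcripts of either strand, from the 10,570 nuclear genes with a transcript in the control structure table (scored genes).

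A further property is that the 10,062 minus-strand dsRNase PPSs of replicate 1 go against their label. None is identical to a dsRNase PPS of any other list, and 14.2% overlap a dsRNase PPS of control replicate 2, against 64.0% of the plus-strand dsRNase PPSs of replicate 1. Of the 10,722 latter ones, 6,653 are identical calls. The minus-strand dsRNase PPSs of replicate 2 overlapped replicate 1 in 12.6%, so the low overlap is not particular to this subset. Of the 10,062, 3,380 have the position and score of an ssRNase PPS of salt replicate 2 on the opposite strand, and 51.2% overlap an ssRNase PPS of that list. No other strand subset of the dsRNase PPSs has a PPS identical to an ssRNase PPS of any list. The 12 main measures were therefore also computed without that subset, and other values only where stated.

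With 2 replicates of each RNase, an exact two-sided permutation test that ignores the pairing of RNases within a replicate cannot go below p = 0.333. PPSs of 1 library are not replicates, so no test was made. Values are given per replicate, shares carry 95% Wilson intervals that cover counting error of PPSs only, and a difference is set against the gap between replicates. The deposited lists hold no read counts, so the depth behind a PPS is unknown.

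The number of PPSs had no common order of the RNases. Replicate 1 had 20,784 dsRNase PPSs, against 13,269 ssRNase PPSs, a log2 ratio of 0.65. Replicate 2 had 11,752 dsRNase PPSs, against 14,434 ssRNase PPSs, a log2 ratio of -0.30. Leaving out the minus-strand dsRNase PPSs of replicate 1 turned the ratio of that replicate to -0.31, close to replicate 2. Enrichment scores likewise showed no common direction, with medians of 7.00 and 8.39 for dsRNase and 8.50 and 8.20 for ssRNase.

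PPSs found with dsRNase were shorter. The median length was 52 and 50 nt for dsRNase in replicates 1 and 2, against 60 and 58 nt for ssRNase, so the RNases differed by 8.00 nt in the same direction in both replicates, while replicates of 1 RNase differed by 2 nt. The interquartile range of the dsRNase PPSs was 40 to 68 and 40 to 64 nt, against 47 to 80 and 46 to 77 nt for ssRNase. PPSs of at least 100 nt made up 7.65% (7.29 to 8.01) and 5.43% (5.03 to 5.85) of the dsRNase PPSs, against 12.5% (12.0 to 13.1) and 10.8% (10.4 to 11.4) of the ssRNase PPSs. Long footprints were thus the less frequent with dsRNase in either replicate. By listed strand, the dsRNase medians were 49 and 52 nt on the + strand and 55 and 47 nt on the − strand, against 59 and 60 nt and 61 and 55 nt for ssRNase. The highest dsRNase subset, the minus-strand one of replicate 1 that goes against its label, reached the lowest ssRNase subset at 55 nt, and the other subsets did not overlap.

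**Figure D1:**
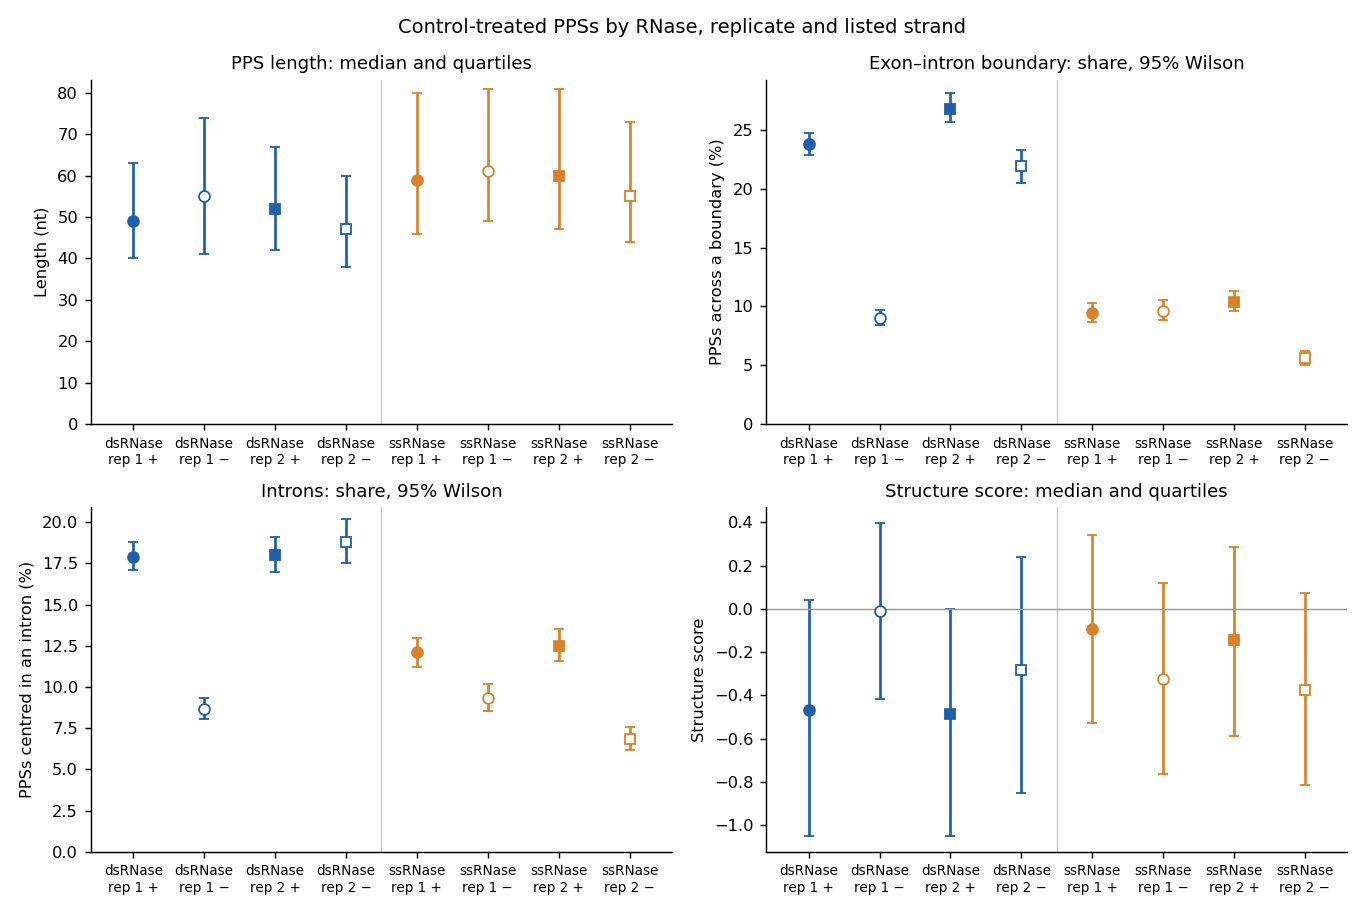
PPS length (median and quartiles, nt), share of PPSs across an exon-intron boundary and share centred in an intron (percent, 95% Wilson intervals), and structure score (median and quartiles), for each RNase, replicate (rep) and listed strand (+ filled, − open). Among dsRNase PPSs the minus-strand subset of replicate 1 stands apart, with 9.03% across a boundary, against 21.9% to 26.8% in the other dsRNase subsets.

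By region, most PPSs of both RNases were centred in coding sequence. Of the PPSs in 1 scored gene, 78.5% (77.9 to 79.1) and 72.8% (71.9 to 73.7) of the dsRNase PPSs had their centre in the CDS, against 79.6% (78.8 to 80.4) and 80.1% (79.4 to 80.9) of the ssRNase PPSs. The CDS holds 45.7% of the bases of these genes. Both RNases were thus above the base share of the CDS, and dsRNase PPSs were the lower in both replicates, although in replicate 1 by less than the gap between the dsRNase replicates. This order did not hold in each replicate under every alternative. For these, the difference was taken over all nuclear PPSs, where it was -0.814 and -5.25 percentage points to begin with. It was 2.98 in replicate 1 without PPSs identical in both lists. With transcripts on the strand of the PPS only, it was -12.8 in replicate 1 and 1.72 in replicate 2. There, a PPS with no gene on its listed strand counts as outside the CDS, so these 2 values also depend on the shares of sense PPSs.

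Introns were the counterpart. Of the PPSs in 1 scored gene, 12.8% (12.3 to 13.4) and 17.9% (17.1 to 18.7) of the dsRNase PPSs were centred in an intron, against 10.1% (9.53 to 10.7) and 9.12% (8.60 to 9.68) of the ssRNase PPSs, while introns make up 35.7% of the bases. Without the minus-strand subset of replicate 1, the dsRNase share of that replicate was 17.4%, close to the 17.9% of replicate 2. Taken over all nuclear PPSs, the difference was 2.09 percentage points in replicate 1 and 6.62 in replicate 2. Without PPSs identical in both lists, it was there -1.08 in replicate 1, against 6.91 in replicate 2. Introns with a dsRNase PPS centre had a median length of 150.5 and 172.5 nt, against 187.5 and 188.0 nt for ssRNase, while all 65,093 introns had a median of 101 nt. A long intron has more room for a PPS centre, and lengths were not matched. First introns made up 27.7% and 30.7% of those with a dsRNase PPS centre and 28.6% and 29.1% of those with an ssRNase PPS centre, while they are 14.7% of all introns.

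UTRs held few PPSs of either kind. Centres in the 5’ UTR made up 2.73% and 3.25% of the dsRNase PPSs in 1 gene, against 3.70% and 3.97% of the ssRNase PPSs, and those in the 3’ UTR 3.81% and 3.98%, against 3.57% and 3.60%. These bases make up 5.75% and 9.05% of the scored genes, so both UTRs were below their base share with each RNase. Start codons lay under 2.56% (2.33 to 2.82) and 2.56% (2.25 to 2.91) of the dsRNase PPSs, against 3.06% (2.74 to 3.42) and 3.20% (2.88 to 3.54) of the ssRNase PPSs. Within the CDS, 19.3% and 17.1% of the dsRNase PPSs lay in the first of 5 equal parts of its length, against 20.8% and 21.3% of the ssRNase PPSs. Stop codons lay under 1.44% and 1.05% of the dsRNase PPSs, against 1.88% and 1.9% of the ssRNase PPSs. For the start codon, the start of the CDS and the stop codon, both dsRNase replicates were thus below both ssRNase replicates. The last of the 5 parts of the CDS had the opposite order, with 19.1% and 19.7% of the dsRNase PPSs, against 18.1% of the ssRNase PPSs in each replicate.

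The RNases also differed at splice sites. In genes with an intron, 16.6% (16.0 to 17.2) and 24.9% (24.0 to 25.8) of the dsRNase PPSs held bases on each side of an exon-intron boundary, against 9.53% (8.96 to 10.1) and 8.01% (7.5 to 8.55) of the ssRNase PPSs. The mean difference was 12.0 percentage points, with 7.10 in replicate 1 and 16.9 in replicate 2. Donors lay under 8.28% and 13.5% of the dsRNase PPSs, against 4.07% and 3.51% of the ssRNase PPSs. Acceptors lay under 9.08% and 12.7% of the dsRNase PPSs, against 5.70% and 4.74% of the ssRNase PPSs. At both kinds of splice site, the dsRNase shares of both replicates were above the ssRNase shares. The minus-strand dsRNase subset of replicate 1 had 9.03% across a boundary, within the 5.58% to 10.4% of the 4 ssRNase subsets. The other dsRNase subsets had 23.8%, 26.8% and 21.9%.

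Since PPSs identical in both replicates are shared calls, the comparison was repeated without them. For PPSs on the strand of the gene that were not identical, 19.4% (17.6 to 21.2) and 22.0% (20.6 to 23.4) of the dsRNase PPSs crossed a boundary, against 13.9% (12.5 to 15.5) and 7.90% (7.12 to 8.75) of the ssRNase PPSs. On either strand, leaving out identical PPSs left a difference of 15.0 percentage points in replicate 2 and 0.0820 in replicate 1, where it leaves mostly the minus-strand subset among the dsRNase PPSs.

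Longer PPSs crossed boundaries more often with either RNase, and dsRNase PPSs were the shorter. The comparison was therefore made within classes of length. Of PPSs of at least 80 nt, 31.5% (29.6 to 33.4) and 54.9% (51.9 to 57.9) of the dsRNase PPSs crossed a boundary, against 16.8% (15.3 to 18.3) and 15.1% (13.7 to 16.6) of the ssRNase PPSs. Under 40 nt, the shares were 8.85% and 12.5% for dsRNase, against 3.88% and 3.14% for ssRNase. In each of the 4 length classes, both dsRNase replicates were above both ssRNase replicates, and the Wilson intervals did not overlap.

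**Figure D2:**
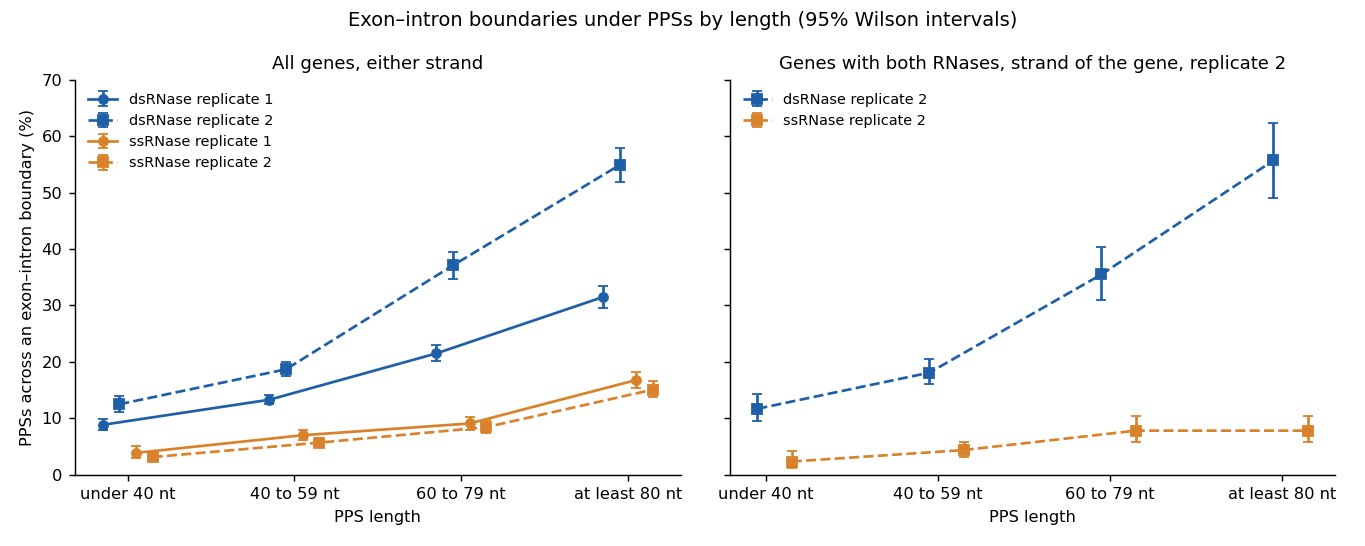
Share of PPSs across an exon-intron boundary (percent, 95% Wilson intervals) by PPS length, for both RNases and replicates in all genes (left) and for replicate 2 in the genes that hold PPSs of both RNases on their own strand (right). In the longest class, 54.9% of dsRNase PPSs of replicate 2 crossed a boundary, against 15.1% of ssRNase PPSs, and within the same genes 55.7%, against 7.82%.

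Around donors, PPS bases were counted in steps of 10 nt. The profiles cover 21,533 donors and 21,872 acceptors only, whereas the scored genes have 65,093 introns. The share of bases under a dsRNase PPS was highest 30 to 21 nt before the donor in replicate 1 (7.19%) and 20 to 11 nt before it in replicate 2 (5.61%), and the ssRNase maxima lay 30 to 21 nt before it (4.18% and 4.16%). Relative to the exon 51 to 100 nt upstream, the maximum was 2.15 and 3.78 times as high for dsRNase, against 1.41 and 1.37 times for ssRNase. The plus-strand dsRNase PPSs of replicate 1 gave 3.90. The dsRNase profile thus formed a peak in the last 50 nt of the exon that was less pronounced with ssRNase. In the first 100 nt of the intron, 1.06% and 0.897% of bases lay under a dsRNase PPS, against 0.546% and 0.519% under an ssRNase PPS.

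After acceptors, no such peak was seen. The mean over the first 100 nt of the exon was 4.14% and 2.1% for dsRNase, against 3.09% and 3.32% for ssRNase, so the RNases had no common order there. In the last 100 nt of the intron, it was 1.23% and 1.00% for dsRNase, against 0.975% and 0.889% for ssRNase.

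**Figure D3:**
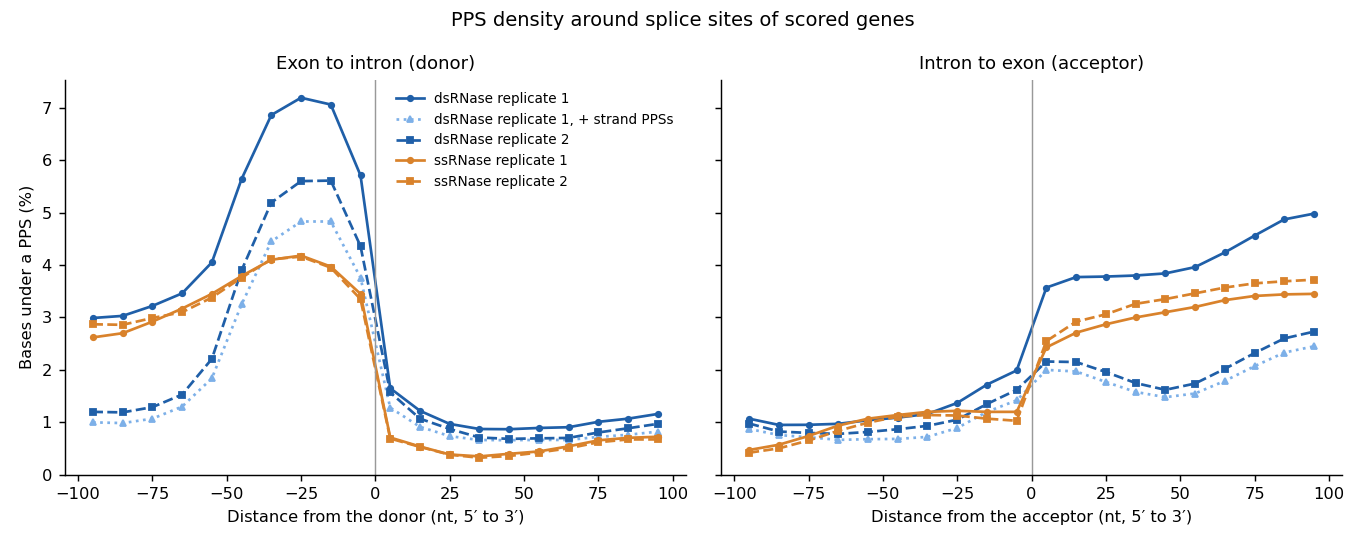
Share of bases under a PPS (percent) in steps of 10 nt around 21,533 donors (left) and 21,872 acceptors (right) of the scored genes, for dsRNase (blue) and ssRNase (orange) PPSs of each replicate, with the plus-strand dsRNase PPSs of replicate 1 dotted. Before the donor, dsRNase reaches 7.19% and 5.61%, against 4.18% and 4.16% for ssRNase.

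The same splice sites recurred between replicates. Of the donors under a dsRNase PPS, 1,180 in replicate 1 and 1,131 in replicate 2, 715 were common to both, which is 60.6% and 63.2%. For ssRNase, 205 of 363 and 348 donors were common, which is 56.5% and 58.9%. Identical PPSs contribute to these overlaps. PPSs of both RNases covered 91 donors, 5.70% of the 1,596 donors under a dsRNase PPS of either replicate and 18.0% of the 506 under an ssRNase PPS. PPSs joined from calls of both RNases were left out when the members were chosen, which lowers this overlap by construction. Among scored genes the donors themselves were alike: GTAAG opened the intron at 19.5% and 19.1% of donors under dsRNase PPSs, against 20.7% and 20.1% under ssRNase PPSs and 17.1% of all introns. At acceptors, introns ended in CAG at 61.7% and 58.9% of those under dsRNase PPSs, against 66.1% and 63.4% under ssRNase PPSs and 67.5% of all introns.

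Because the RNases sampled different genes, the comparison was repeated within genes that held PPSs of both RNases on the strand of the gene. In replicate 2, these were 908 genes with 2,499 dsRNase and 2,482 ssRNase PPSs, of which 0.760% and 0.403% lay in + strand genes. Replicate 1 had only 10 such genes, so the comparison rests on 1 replicate. There, the median length was 47 nt for dsRNase, against 56 nt for ssRNase. Boundaries lay under 22.3% (20.7 to 24.0) of the dsRNase PPSs, against 5.52% (4.67 to 6.50) of the ssRNase PPSs, and donors under 11.9%, against 2.16%. Intron centres made up 18.9% (17.4 to 20.5) for dsRNase, against 7.05% (6.11 to 8.13) for ssRNase, and CDS centres 72.2%, against 83.3%. The shorter length and the higher shares in introns and across boundaries with dsRNase were thus also seen within the same genes. Of these PPSs, 0.640% of the dsRNase and 63.3% of the ssRNase PPSs were identical in replicate 1.

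The structure score of a base is higher where it was more often paired in the structure-only libraries of both replicates merged. Those libraries are also the background of the PPS calls, so the score is not independent of the PPSs. The median score under PPSs was -0.193 and -0.404 for dsRNase, against -0.207 and -0.264 for ssRNase. PPSs of both RNases were less structured than the exonic bases on their flanks, with a lower score in 59.2% and 66.4% of the dsRNase PPSs and in 60.9% and 63.5% of the ssRNase PPSs. Between the RNases no direction held. The difference was 0.0142 in replicate 1 and -0.140 in replicate 2, and by strand the dsRNase medians on the + strand (-0.468 and -0.484) were below those of ssRNase (-0.0930 and -0.146), whereas on the − strand (-0.00841 and -0.282) they were above those of ssRNase (-0.326 and -0.377). Within the same genes of replicate 2, the median was -0.234 for dsRNase, against -0.361 for ssRNase. The order of the RNases thus followed the listed strand, and the part of strand in it was not tested.

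PPSs found with dsRNase held less C. On the strand of the gene, C made up 17.1% and 15.4% of the bases under dsRNase PPSs, against 18.8% and 18.5% under ssRNase PPSs. In the CDS alone, the shares were 17.8% and 16.2% for dsRNase, against 19.5% and 19% for ssRNase, and 20.3% of all CDS bases are C. G made up 26.8% and 27.8% of the bases of CDS-centred dsRNase PPSs, against 25.5% and 26.6% for ssRNase and 24.3% over all CDS bases. Both RNases were thus below the CDS in C and above it in G, with dsRNase the farther from it in C. By strand, the minus-strand dsRNase PPSs of replicate 1 held 19.2% C, against 14.9% to 16.1% in the other dsRNase subsets and 17.3% to 19.7% in the ssRNase subsets. Within the same genes of replicate 2, C made up 16.2% for dsRNase and 17.5% for ssRNase.

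Short sequence motifs were counted in the 40 nt around the centre of each PPS on the strand of the gene. In PPSs shorter than 40 nt this window reaches beyond the PPS, and dsRNase PPSs were the shorter. The motifs were GAAGAA (a purine-rich repeat of exonic splicing enhancers), CTCTCT (a pyrimidine repeat bound by polypyrimidine tract-binding proteins), GGACT (a form of the context in which m6A is found), TTTTTT (a run of T), AATAAA (the polyadenylation signal) and TGTANATA (the Pumilio element). GAAGAA occurred in 6.76% (6.37 to 7.16) and 8.35% (7.79 to 8.94) of dsRNase PPSs, against 6.55% (6.09 to 7.05) and 6.80% (6.34 to 7.29) of ssRNase PPSs and 3.72% of all 40-nt windows of the scored genes. CTCTCT occurred in 0.801% (0.673 to 0.952) and 0.429% (0.313 to 0.589) of dsRNase PPSs, against 1.35% (1.14 to 1.60) and 1.18% (0.995 to 1.40) of ssRNase PPSs and 2.58% of all windows. The pyrimidine repeat was thus the rarer with dsRNase in both replicates, and the purine repeat was above all windows with either RNase, with a share of 5.24% in CDS windows. In the CDS alone, CTCTCT was in 0.656% and 0.233% of dsRNase PPSs, against 1.17% and 1.07% of ssRNase PPSs and 1.68% of CDS windows. Its share within the same genes of replicate 2 was 0.280% for dsRNase, against 1.05% for ssRNase.

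The other motifs did not separate the RNases beyond their intervals in both replicates. GGACT was in 3.57% and 3.43% of dsRNase PPSs, against 3.78% and 4.15% of ssRNase PPSs and 2.00% of all windows. TTTTTT was in 1.40% and 1.98%, against 1.35% and 1.17%, with 4.2% of all windows. AATAAA was in 0.508% and 0.768%, against 0.656% in each ssRNase replicate, with 1.43% of all windows. TGTANATA was in 0.311% and 0.328%, against 0.418% and 0.268%, with 0.412% of all windows. All windows include introns and UTRs, whereas most PPSs are in the CDS. In the CDS alone, TTTTTT was in 0.502% and 0.527% of dsRNase PPSs, against 0.4% and 0.334% of ssRNase PPSs and 0.721% of CDS windows. GGACT was there in 3.77% and 3.74%, against 4.1% and 4.6%, with 2.69% of CDS windows, and AATAAA in 0.324% and 0.434%, against 0.462% and 0.438%, with 0.687%. Both RNases were thus below the CDS windows in the T run and the polyadenylation signal and above them in GGACT.

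**Figure D4:**
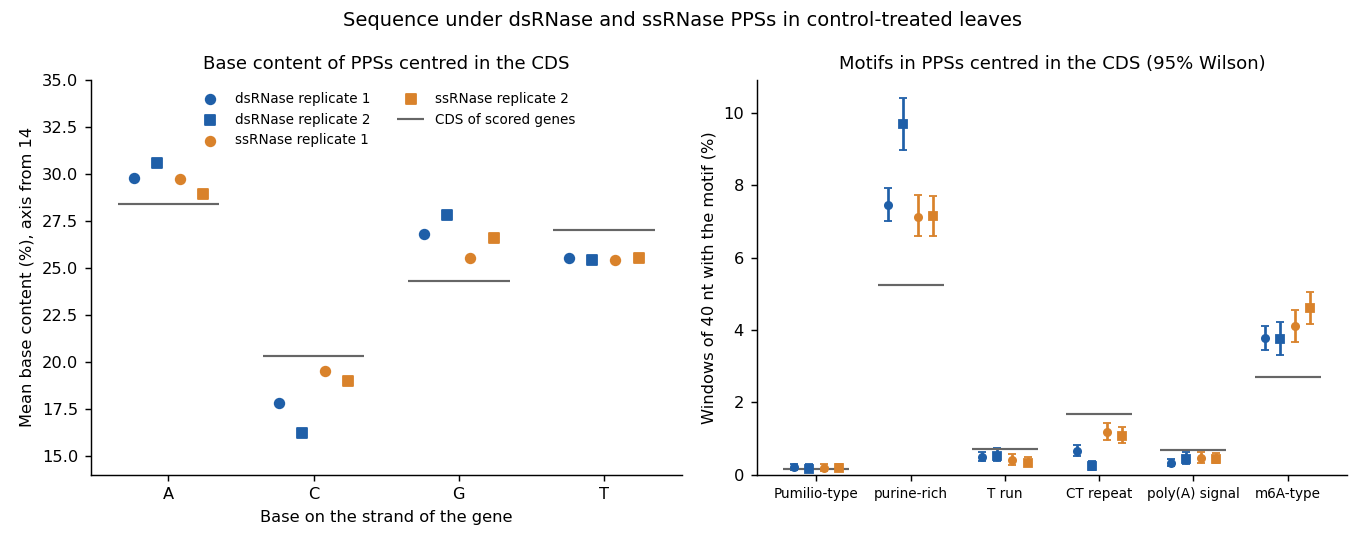
Mean base content (percent, axis from 14) of CDS-centred PPSs on the strand of the gene (left) and share of their central 40-nt windows with each motif (percent, 95% Wilson intervals, right), for both RNases and replicates, with grey lines for the CDS of all scored genes. C is at 17.8% and 16.2% for dsRNase, against 19.5% and 19% for ssRNase.

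G+C content and predicted folding separated the RNases less clearly. PPSs found with dsRNase had a mean G+C content of 42.9% and 41.8%, against 43.5% and 44.3% for ssRNase. The predicted folding energy of the 100 nt around the centre had a median of -18.5 and -17.9 kcal per mol for dsRNase, against -18.4 and -18.8 for ssRNase. In windows of 40 to 45% G+C, it was -18.6 in both dsRNase replicates, against -18.3 and -18.4 for ssRNase. In windows of 45 to 50% G+C, it was -21.0 and -20.7 for dsRNase, against -20.6 and -21.0 for ssRNase. The folding energies thus had no order of the RNases that held in both replicates and both classes of G+C content, and all these gaps were under 1 kcal per mol.

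The genes with PPSs of each RNase were compared next. Of the 10,570 scored genes, 57.8% held the centre of a PPS of either RNase in a replicate. In replicate 1, 3,648 genes held a dsRNase PPS and 2,489 an ssRNase PPS, and 812 held both, which is 15.2% (14.3 to 16.2) of those with either. In replicate 2, 2,931 held a dsRNase PPS and 3,172 an ssRNase PPS, and 1,355 held both, which is 28.5% (27.3 to 29.8). Genes reached by both RNases through joined PPSs are not counted as holding both, since those PPSs are not members, so these shares are lower limits.

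Gene strand moved with the RNase. Of the PPSs in 1 gene, 83.0% and 40.1% of the dsRNase PPSs lay in + strand genes, against 0.706% and 18.0% of the ssRNase PPSs, whereas 50.6% of the scored genes are on the + strand. Of all scored genes, 18.4% held a dsRNase PPS in both replicates and 21.0% an ssRNase PPS in both, but of the + strand genes these shares were 20.5% and 0.449%, and of the − strand genes 16.2% and 41.9%. More dsRNase than ssRNase PPSs in both replicates (a dsRNase majority) were found in 20.4% of the + strand genes and 5.74% of the − strand genes, and an ssRNase majority in 0.206% and 28.1%. A gene with more PPSs of 1 RNase therefore cannot be told apart from a gene on 1 strand, and the genes named next are read with that limit.

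Genes with a dsRNase majority made up 13.1% of all scored genes. The balance of a gene is its number of dsRNase PPSs minus that of ssRNase PPSs, and the 10 genes with the largest balance were all on the + strand and had 0 ssRNase PPSs. AT1G58602, an NB-ARC and leucine-rich repeat disease resistance gene (chr1:21746373-21764969), held 76 and 29 dsRNase PPSs, with 67 of both replicates together centred in an intron and 31 in the CDS, and 34 of the 76 are listed on its own strand. MOR1, a microtubule-associated protein (chr2:14966678-14980606), held 54 and 20 (26 of the 54 on its own strand), of which 72 were centred in the CDS. WRR4, a TIR-NBS-LRR resistance gene against white rust (chr1:21167589-21173632), held 49 and 19 (21 of the 49 on its own strand), with 39 in introns. The resistance genes were thus mainly covered in introns and MOR1 in the CDS.

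Others of these 10 held many PPSs over splice sites. AT1G78070, a WD40 repeat protein (chr1:29355022-29358993), held 43 and 20 dsRNase PPSs, 31 of them across a boundary. SNG1, which makes sinapoylmalate (chr2:9786316-9790179), held 33 and 16, with 24 across a boundary, and TPI, the glycolytic triosephosphate isomerase (chr3:20553690-20556560), 26 and 17, with 21 across. The other 4 were ALA3, an aminophospholipid ATPase (37 and 19), AT1G73480, an alpha/beta-hydrolase (37 and 16), AT1G52360, a coatomer subunit (33 and 17), and AtIPCS1, an inositol phosphorylceramide synthase (24 and 16). In all 10, replicate 1 held more dsRNase PPSs than replicate 2, but most of the surplus lies in the minus-strand subset that goes against its label. On the strand of the gene, the 10 genes held 17 to 34 in replicate 1 and 16 to 29 in replicate 2. The counts of introns and boundaries given for these genes include that subset, as do those of replicate 1 for the other + strand genes below. Counts of CDS, introns and boundaries also add both lists, which share calls. Of the 7,180 plus-strand dsRNase PPSs of replicate 2, 6,653 are identical in replicate 1, so the counts of the replicates are not independent.

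Genes with an ssRNase majority made up 14.0% of all scored genes, and the 10 with the largest balance toward ssRNase were all on the − strand. AT1G48090, a calcium-dependent lipid-binding protein gene with 67 exons (chr1:17732010-17758444), held 0 and 14 dsRNase PPSs, against 71 and 67 ssRNase PPSs, of which 132 were centred in the CDS. UPL1, a HECT-type E3 ubiquitin ligase (chr1:20879466-20893268), held 0 and 1 dsRNase PPSs, against 60 and 59 ssRNase PPSs, 119 of them in the CDS. AT1G21580, a CCCH zinc finger gene (chr1:7557262-7565803), held 4 and 10, against 45 and 47. GSL8, a callose synthase (chr2:15454697-15469889), held 0 and 7, against 39 and 37. These genes were thus mainly covered in the CDS, with 0 to 4 ssRNase PPSs across a boundary in each of the 4. The counts of CDS and boundaries add both lists, which share calls. On the strand of the gene, AT1G48090 held 23 and 19 ssRNase PPSs and UPL1 19 and 18. AT1G21580 held 25 and 25 there, and GSL8 9 and 7.

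The remaining ssRNase-rich genes included 2 that act on chromatin. HAC1, a histone acetyltransferase (chr1:29716350-29724621), held 0 and 2 dsRNase PPSs, against 23 and 26 ssRNase PPSs. CHR5, a chromatin remodeller (chr2:5544181-5556464), held 0 and 3, against 23 and 29. AT1G01320, with tetratricopeptide repeats, held 9 and 15, against 51 and 46, and AT2G25730, GRV2 (a DNAJ protein of endosomes) and AT3G25840 (a protein kinase) held at most 4 dsRNase PPSs in a replicate, against 26 to 33 ssRNase PPSs. On their own strand, these remaining genes, HAC1 and CHR5 included, held 7 to 27 ssRNase PPSs in a replicate.

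**Figure D5:**
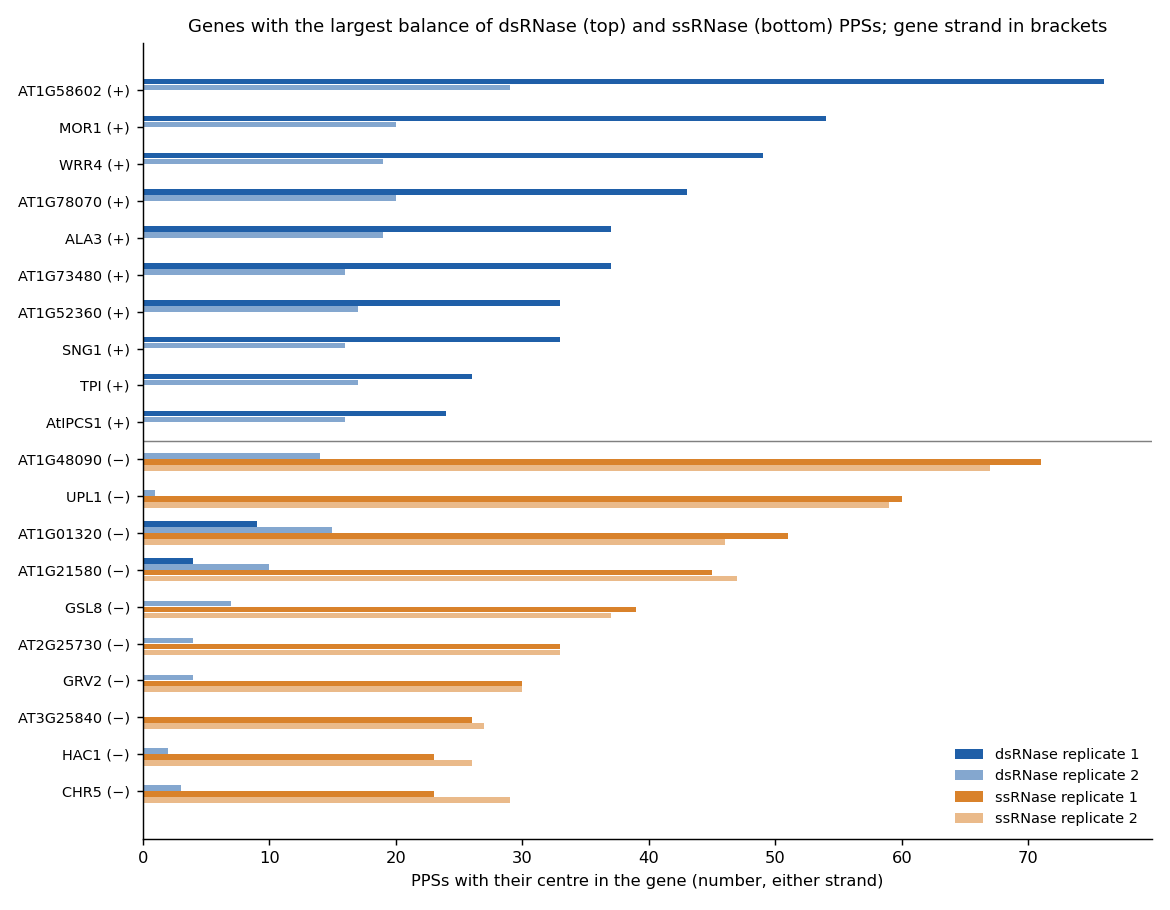
Number of dsRNase (blue) and ssRNase (orange) PPSs centred in each gene, per replicate, for the 10 genes with the largest balance toward dsRNase (top) and the 10 toward ssRNase (bottom), with the gene's strand in brackets. The upper genes, all on the + strand, hold 0 ssRNase PPSs, and the lower genes, all on the − strand, hold up to 71.

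Few genes were rich in both. APA1, an aspartic proteinase of the vacuole (chr1:4016784-4020983), held 11 and 23 dsRNase PPSs, against 17 and 12 ssRNase PPSs, and 20 of its dsRNase PPSs crossed a boundary, against 5 of its ssRNase PPSs. AT3G07700, a protein kinase gene, held 13 and 18, against 12 and 13, with 9 across a boundary, against 4. The boundary counts of these genes, and of the next ones, add both lists, which share calls. In AT4G17140 (10 and 29, against 48 and 29) and AT5G40450 (21 and 4, against 48 and 27) most PPSs of both RNases were in the CDS, and 1 or 2 of each RNase crossed a boundary. Boundary PPSs were thus many in APA1 and AT3G07700 and too few in the other two genes to compare the RNases. P5CS1 (AT2G39800), the enzyme that limits proline synthesis under salt (chr2:16598164-16603319, − strand), held 0 and 8 dsRNase PPSs, against 21 and 21 ssRNase PPSs. In P5CS1, 22 ssRNase PPSs were centred in introns and 12 crossed a boundary, against 1 and 1 of the dsRNase PPSs. These counts add both lists, which share calls, and the 8 dsRNase PPSs are all of replicate 2. On the strand of the gene lay 4 of the 21 ssRNase PPSs in each replicate, so no order of the RNases is read from P5CS1.

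Among genes of photosynthesis, all 13 light-harvesting genes were scored and held a PPS, where 57.8% of all scored genes did. A dsRNase majority in both replicates was found in 1 of 13 and an ssRNase majority in 4 of 13, with 6 of the 13 on the + strand, where 13.1% and 14.0% of all scored genes had these majorities. LHCA3, a photosystem I antenna protein, held 8 and 2 dsRNase PPSs, against 0 ssRNase PPSs in each replicate. LHCA1 held 0 and 3 dsRNase PPSs, against 5 and 1 ssRNase PPSs. RCA, the activase of Rubisco, held 0 and 3 dsRNase PPSs, against 6 and 6 ssRNase PPSs. The 4 scored genes of Rubisco and its activase include none on the + strand. Of them, 0 had a dsRNase and 2, RCA among them, an ssRNase majority in both replicates, where 5.74% and 28.1% of all − strand genes had them. CAT3, a catalase, held 14 dsRNase PPSs in replicate 1 and 0 in replicate 2, none on the strand of the gene, against 0 ssRNase PPSs.

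Of the 8 scored clock genes, 7 of them on the + strand, 3 had a dsRNase majority in both replicates and 0 an ssRNase majority, where 20.4% and 0.206% of all + strand genes had them. PRR9, a repressor of the morning loop, held 12 and 6 dsRNase PPSs, against 0 and 0 ssRNase PPSs. PRR7, its close relative on the − strand, held 6 and 18 dsRNase PPSs, against 16 and 3 ssRNase PPSs, so its replicates had opposite orders. GI, on the + strand, held 11 and 0 dsRNase PPSs, all 11 in the minus-strand subset that goes against its label, and no ssRNase PPS, and TOC1 11 ssRNase PPSs in replicate 2 alone. Of the 6 photoreceptor genes, PHYB held 8 and 2 dsRNase PPSs, against 0 and 0, while PHYA held 0 and 3, against 10 and 9, and CRY2 3 and 7, against 11 and 11. PHOT2 held 14 ssRNase PPSs in replicate 2 alone. TOC1 and PHOT2 are + strand genes of chromosome 5. Plus-strand ssRNase PPSs there were 98.7% sense in replicate 2, against 0.207% in replicate 1. The counts of these genes cannot be told apart from that property of the lists. The clock and light receptor genes thus included members seen with 1 RNase alone, such as PRR9, and members seen with both, such as PRR7 and CRY2.

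RNA-binding proteins were covered too. All 18 scored genes of SR splicing factors held a PPS, with a dsRNase majority in both replicates in 4 and an ssRNase majority in 4, and 9 of them are on the + strand, where 13.1% and 14.0% of all scored genes had these majorities. SR34b held 17 and 7 dsRNase PPSs and SCL33 12 and 6, against 0 and 0 ssRNase PPSs in both genes. SR30, on the − strand, held 5 and 5 dsRNase PPSs, against 7 and 5 ssRNase PPSs. Of the 7 scored genes of the m6A machinery, 2 on the + strand, 1 had a dsRNase and 3 an ssRNase majority in both replicates, where 5.74% and 28.1% of all − strand genes had them. ECT2, a reader of m6A, held 0 and 0 dsRNase PPSs, against 9 and 9 ssRNase PPSs, and AT3G05680 (VIR), of the methyltransferase complex, 0 and 0, against 6 and 7. AT4G02940 (ALKBH10B), an m6A eraser on the + strand, held 2 and 2 dsRNase PPSs, against 0 and 0 ssRNase PPSs. All 5 genes of glycine-rich and polypyrimidine tract-binding proteins held a PPS, with at most 3 of 1 RNase in a replicate in the 4 genes with the most PPSs. Of the 22 cytosolic ribosomal protein genes, 9 were scored, and 3 had a dsRNase and 1 an ssRNase majority in both replicates, against the same 13.1% and 14.0% of all scored genes. With so few genes and with gene strand moving with the RNase, nothing is read from these counts.

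Outside protein-coding genes PPSs were few with either RNase. Protein-coding genes held 96.4% and 96.0% of the dsRNase PPSs, against 97.3% and 97.5% of the ssRNase PPSs. No annotated gene lay under 2.13% (1.94 to 2.34) and 2.55% (2.28 to 2.85) of the dsRNase PPSs, against 1.03% (0.868 to 1.21) and 0.930% (0.785 to 1.1) of the ssRNase PPSs, and this share was the higher with dsRNase in both replicates. The ncRNA gene with the most dsRNase PPSs was AT3G06365, annotated as misc_RNA (chr3:14200215-14204208), with 28 and 16, against 0 and 0 ssRNase PPSs. The one with the most ssRNase PPSs was the lncRNA AT3G56408 (chr3:20915472-20921502), with 1 and 4 dsRNase PPSs, against 33 and 9 ssRNase PPSs, and it overlaps the protein-coding gene AT3G56410, from which its PPSs cannot be told apart on either strand. Among scored lncRNAs, the median structure score under PPSs was -0.174 and -0.193 for dsRNase, against -0.106 and -0.145 for ssRNase.

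Recurrence between replicates was also compared. Of the dsRNase PPSs of replicate 1, 39.9% (39.2 to 40.6) overlapped a dsRNase PPS of replicate 2, against 69.5% (68.7 to 70.3) for ssRNase. Of these 8,291 dsRNase and 9,223 ssRNase PPSs, 6,653 and 8,246 are calls identical in both lists, so most of this recurrence is of shared calls. Without the minus-strand dsRNase subset of replicate 1, the gap of -29.6 percentage points was -5.49. In the other direction, 61.7% of the dsRNase PPSs of replicate 2 overlapped one of replicate 1, against 61.8% for ssRNase. Between RNases, 5.32% of the dsRNase PPSs of replicate 1 overlapped an ssRNase PPS of replicate 2, and 9.42% of the ssRNase PPSs of replicate 1 overlapped a dsRNase PPS of replicate 2. PPSs of the 2 RNases thus lay mostly at different places, and by construction of the lists those that overlap within a replicate on 1 strand had been joined.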

How the data were processed

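The authors trimmed reads with cutadapt (1.2.1 in the submitters' processing notes), mapped them to TAIR10 with TopHat2 2.0.10 in a strand-specific mode, and randomly thinned the deeper library wherever a footprinting and a structure-only library were paired. PPSs were called by the authors at a false discovery rate of 5%, and each PPS carries their deposited enrichment score. The structure score of each base was calculated by the authors from the structure-only libraries of both replicates merged, scaled to the mean of the transcript, and deposited as such. Neither table gives read counts, so the depth behind a PPS or a structure score is unknown.

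PPSs were grouped by the RNase named in their list and by the labels' replicates. From 1 transcript per gene (one with a CDS where there is one, then the lowest number), the region under the PPS centre, splice sites and base content on the strand of the gene were read, with RefSeq TAIR10.1 for sequence and annotation. A PPS was given the mean structure score of its exonic bases where at least 50% of them were scored, and its flanks were 50 exonic bases on each side. Windows of 100 nt around the centre were folded with ViennaRNA 2.7.2. PPSs overlapped when they shared at least 1 nt. Motifs were searched on the strand of the gene only, and a PPS was counted once for each motif present in its central window. Python 3.11.15, numpy 2.4.6 and matplotlib 3.10.9 were used. In simulated data, 1000 of 1000 PPSs planted at known places were found there and 200 planted structure scores were read back.

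Members and gene lists were chosen with earlier results of these data known. Genes were named by a rule: the 10 with the largest balance of each RNase in the replicate where it was smaller, the 5 with the most PPSs of both, the top ncRNA gene of each, the highest-scoring PPSs, P5CS1, and up to 4 genes with the most PPSs of each list (ribosomal protein genes by product name). Splice boundaries, C content, the comparison within the same genes and that without the minus-strand dsRNase PPSs of replicate 1 were added after the data were seen. Other alternatives were each replicate alone, PPSs not identical between replicates, above the median score, of at least 30 nt or of a single call, transcripts on the strand of the PPS, every overlapped region, bases with a score of 0 left out, CDS-centred PPSs, matched G+C content, and overlap on the same strand or of 50% reciprocally. Organellar PPSs did not enter location or base content. One highest-scoring dsRNase PPS across splice sites is not reported here.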

Additional observations from a re-analysis of the deposited data

Results flagged for a closer look

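One result came from data outside the comparison of the RNases. Of the 10,062 dsRNase PPSs of control replicate 1 on the minus strand, 3,380 are listed with the same position and score as ssRNase PPSs of salt replicate 2, on the opposite strand. This is 33.6% (95% Wilson interval 32.7 to 34.5), against 0 of the other dsRNase PPSs of the control lists. Identity with salt lists is not particular to this subset, since every other strand subset shared calls with them under its own RNase. Against salt replicate 1, these were 645 of the 6,569 minus-strand ssRNase and 6,809 of the 10,722 plus-strand dsRNase PPSs of control replicate 1. Only in this subset were the identical calls of the other RNase. The same strand subset held 9.03% of its PPSs across an exon-intron boundary, 19.2% C and a median structure score of -0.00841, against 21.9% to 26.8%, 14.9% to 16.1% and -0.484 to -0.282 in the other dsRNase subsets. Whether the RNase or the strand is mislabelled, and in these PPSs or in those of salt replicate 2, cannot be told apart from the lists.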

How the results depend on the processing

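Of 106 values under alternatives for 12 results, 97 kept their direction as a mean over replicates. Some could not change it: no member was joined from several calls, so keeping single calls returned the main values. The share of genes with both RNases cannot be negative, so its values could not reverse. The share of PPSs across exon-intron boundaries kept its direction under every alternative run, although by 0.0820 percentage points in replicate 1 without identical PPSs. No paired analysis was possible because the results come from no test, and the differences within each replicate are given as values instead.

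All values are dsRNase minus ssRNase, or log2 of their ratio. For the CDS and introns, the shares are of all nuclear PPSs. Leaving out 1 replicate in turn gave -0.30 to 0.65 for the log2 number of PPSs (main value 0.18, reversed without replicate 1), -8.00 nt each time for length, -1.50 to 0.190 for the PPS score (main value -0.655, reversed without replicate 1), -5.25 to -0.814 percentage points for the CDS, 2.09 to 6.62 for introns, 7.10 to 16.9 for boundaries, -0.140 to 0.0142 for the structure score (main value -0.0630, reversed without replicate 2), -2.46 to -0.582 for G+C, -3.06 to -1.76 for C, -0.100 to 0.900 kcal per mol for folding energy (main value 0.4, reversed without replicate 2) and 15.2% to 28.5% of genes with both RNases.

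Without the minus-strand dsRNase PPSs of replicate 1, the log2 number reversed to -0.30, and length was -9.50 nt, the structure score -0.201, C -3.43 (main value -2.41) and the overlap between replicates -5.49 (main value -29.6). Without identical PPSs, the structure score reversed to 0.0550, length was -9.00 nt and overlap -10.7. Within the same genes of replicate 2, the structure score reversed to 0.127, and length was -9.00 nt, CDS -11.1 (main value -3.03), introns 11.8 (main value 4.36), G+C -3.16 (main value -1.52), folding energy 1.35 and C -1.26. Above the median score, length was -10.0 nt and overlap -27.0. With PPSs of at least 30 nt, the PPS score reversed to 0.180 and overlap was -28.4. On the same strand, overlap was -32.5, folding energy 1.50 and genes with both RNases 10.4% (main value 21.9). Counting every overlapped region gave 11 for introns, and at matched G+C the folding energy reversed to -0.250. The causes were not tested.

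The 2 replicates share calls, listed strand and gene strand moved with the RNase, and the depth behind each PPS is unknown. The gaps between replicates are therefore a lower limit of the error.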

Other observations

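On the chloroplast genome there were 46 and 12 dsRNase PPSs, against 11 and 12 ssRNase PPSs, and on the mitochondrial genome 8 and 2, against 6 and 6. For the next counts, PPSs centred in a protein-coding gene on either strand were left out. Small nuclear RNA genes, whose products act in splicing, then held 4 and 5 dsRNase PPSs, against 1 and 0 ssRNase PPSs. Small nucleolar RNA genes, whose products guide the modification of rRNA, held 24 and 17, against 23 and 23. A pair of other ncRNA genes are given, with all PPSs centred in them, as values chosen after they were seen. The lncRNA AT1G25098 held 22 and 10 dsRNase PPSs, against 0 and 0 ssRNase PPSs, and overlaps the protein-coding genes AT1G25097 and AT1G25112. The lncRNA AT2G24755 held 0 and 2 dsRNase PPSs, against 14 and 14 ssRNase PPSs.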
